A study of Mus musculus with 4 samples.

Results

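The genes described here encode the subunits of AMPA and kainate receptors, the ionotropic receptors that carry most fast excitatory transmission in the brain. They were taken by gene symbol, the 4 AMPA receptor genes Gria1 to Gria4 and the 5 kainate receptor genes Grik1 to Grik5, and all 9 were among the 24421 genes of the deposited tables. The libraries came from a study of ERK signalling in a mouse model of Noonan syndrome. Per the labels, 2 libraries were labelled excitatory and hold αCaMKII-positive neurons of the brain, and 2 were labelled inhibitory and hold vGAT-positive neurons. The colonies carried the αCaMKII-Cre or the vGAT-IRES-Cre transgene, were bred to C57Bl/6J mice, and gave male animals of 3 to 5 months. Each library was made from 100 fluorescent cells picked by hand with a glass pipette. The labels give no treatment, brain region or mutant allele for these 4 libraries, and leave it unstated if both libraries of a label are from 1 animal or more; p-values therefore cover the spread between the libraries at hand, part or all of which may be technical.

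AMPA receptors are tetramers of the proteins GluA1 to GluA4, encoded by Gria1 to Gria4, and open within milliseconds of glutamate release. A receptor that contains GluA2 lets little calcium through, because the GluA2 transcript is edited by the enzyme ADAR2 at a codon of the pore, the Q/R site, so that the protein carries arginine in place of glutamine there. In the mammalian forebrain, principal cells are known for GluA2-rich receptors and many interneurons for receptors with little GluA2 or with GluA4. Kainate receptors are assembled from GluK1 to GluK3, which form channels on their own, and from GluK4 and GluK5, which bind kainate with higher affinity and need a GluK1 to GluK3 partner for a functional channel. They act on both sides of the synapse, and GluK1 is known in interneurons and GluK2 in principal cells of the hippocampus.

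The coding sequence round the Q/R codon shows how close these genes are to each other, and it is the stretch on which the ratio of GluA2 to the other AMPA subunits bears. Each stretch below was read from the GENCODE M21 transcript with the longest coding region, 5′ to 3′ on the strand of the gene, with the Q/R codon in capitals.
Gria1: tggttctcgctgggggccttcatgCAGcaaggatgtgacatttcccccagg
Gria2: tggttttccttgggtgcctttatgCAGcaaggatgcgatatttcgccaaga
Gria3: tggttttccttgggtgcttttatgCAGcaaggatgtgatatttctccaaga
Gria4: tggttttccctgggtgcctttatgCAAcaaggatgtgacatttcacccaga
Grik1: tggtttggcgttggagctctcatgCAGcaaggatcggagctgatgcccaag
Grik2: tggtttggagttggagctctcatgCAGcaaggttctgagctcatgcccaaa
Grik5: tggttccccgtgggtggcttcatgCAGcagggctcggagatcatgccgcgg
All of these stretches encode glutamine at the Q/R codon, and the arginine of edited GluA2 comes from the RNA. The stretch of Gria2 differed from that of Gria3 at 3 of 51 bases, and that of Grik1 from that of Grik2 at 5 of 51 bases. Between an AMPA and a kainate receptor gene 62.7% to 70.6% of the bases were identical. Gria1 lies on chromosome 11 (57011387 to 57330244, plus strand), Gria2 on chromosome 3 (80681450 to 80802835, minus), Grik1 on chromosome 16 (87895900 to 88290265, minus) and Grik2 on chromosome 10 (49094833 to 49788766, minus), all in build mm10. The Q/R codon of Gria2 lies in exon 11 of 16 at positions 80706911 to 80706913 of chromosome 3 (mm10, minus strand), and that of Grik2 in exon 12 of 16 at positions 49244329 to 49244331 of chromosome 10 (mm10, minus strand). Over their whole transcripts, 7 of 36 pairs of the genes shared any run of 50 identical bases. A pair shared at most 9 such runs, where overlapping runs of 50 within a longer stretch were counted separately. The tables give 1 value per gene, so neither editing nor splice forms were measured.

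The linear values of a library, in units of 1000000, summed to 80.2 and 77.5 in the excitatory libraries, against 53.4 and 54.4 in the inhibitory ones. Depth in reads was put at 61.9 to 74.2 (in units of 1000000 reads) from the spacing of the lowest values, and 12609 to 12798 genes were above 0 in a library. Values of genes are log2 of scaled reads, and differences are excitatory minus inhibitory on that scale. Linear values are 2 raised to the value, less 1. Whether 1 was added before the log is not given in the sources used here, and the lowest values do not bear it out. The median difference over the 13619 genes tested was 0.52, and -0.01 once the libraries had been brought to a common median by median-of-ratios scaling; values so treated are called scaled here. Markers went only in part with the labels. Camk2a, the gene of αCaMKII, had the higher values under the excitatory label (difference 0.87, SE 0.061, limma adjusted p = 0.000318). No library had a value above 0 for Slc32a1, the gene of vGAT, so the labels are used here as names of libraries. Slc17a7, the gene of a vesicular glutamate transporter (12.19 and 12.06 against 11.99 and 11.67), and the GABA synthesis genes Gad1 (10.91 and 11.17 against 11.45 and 11.59) and Gad2 (9.73 and 10.39 against 10.14 and 10.13) did not pass; Gad1 passed as higher under the inhibitory label after scaling (-1.02, adjusted p = 0.00768; 0.00768 to 0.221 over the alternatives). The 7 glutamatergic neuron markers summed to 1340 and 1320 ppm (parts in 1000000 of the linear total of a library) in the excitatory libraries, against 1050 and 1060 in the inhibitory ones. The 7 GABAergic neuron markers, of which 2 passed as higher with the excitatory label and 1 with the inhibitory one, summed to 189 and 171 against 165 and 179, ranges that overlap. Transcripts of other cells were present under both labels: 6 astrocyte markers summed to 19900 and 20500 ppm under the excitatory label, against 17900 and 15700 under the inhibitory one, 6 oligodendrocyte markers to 37100 and 37600 against 51300 and 50400, 5 markers of oligodendrocyte precursors to 37.4 and 34.9 against 76.6 and 94.2, and 6 microglia markers to 200 and 228 against 841 and 671. Of 4 endothelial markers, Cldn5 and Tek were at 0 in every library. Pdgfra, the defining receptor gene of oligodendrocyte precursors, was at 0 in both excitatory libraries and at 10.84 and 11.51 in the inhibitory ones. The other precursor markers were split. Olig2 was also higher in the inhibitory libraries (1.98 and 1.90 against 4.92 and 4.13). Olig1 (11.54 and 11.40 against 11.13 and 11.10) and Sox10 (3.94 and 1.32 against 0 in both) leaned the other way and did not pass. Cspg4 was at 0 except in inhibitory replicate 2 (1.83). Precursors and astrocytes express AMPA or kainate receptor genes too, and the part of these cells in the results below was not tested. In bulk samples fewer cells of a type and less RNA per cell cannot be told apart.

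The receptor genes differed between the labels in both directions. Of the 9 genes, 5 were higher in the excitatory libraries (Gria1, Gria2, Gria4, Grik1 and Grik5), 2 were higher in the inhibitory libraries (Gria3 and Grik2), and Grik3 and Grik4 did not pass limma's test at an adjusted p of 0.05; Gria4 entered the test through the excitatory libraries alone. Over all genes tested, 71.8% passed (45% with the excitatory and 26.8% with the inhibitory libraries on top), so a count of 7 in 9 is near the background. The median difference of the 9 genes was 1.14, against 0.52 over all genes tested. After scaling 3 were higher in the excitatory libraries (Gria2, Gria4 and Grik1) and the same 2 in the inhibitory libraries, against 32.4% and 33.5% of all genes (65.9% in either direction); the median of the 9 genes was then 0.60. Values of the labels did not overlap for 8 of the 9 genes, all but Grik3, as for 86.4% of all genes tested. The differences of Gria2 and Grik2 passed under each of the 11 alternative settings that were run.

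**Figure D1:**
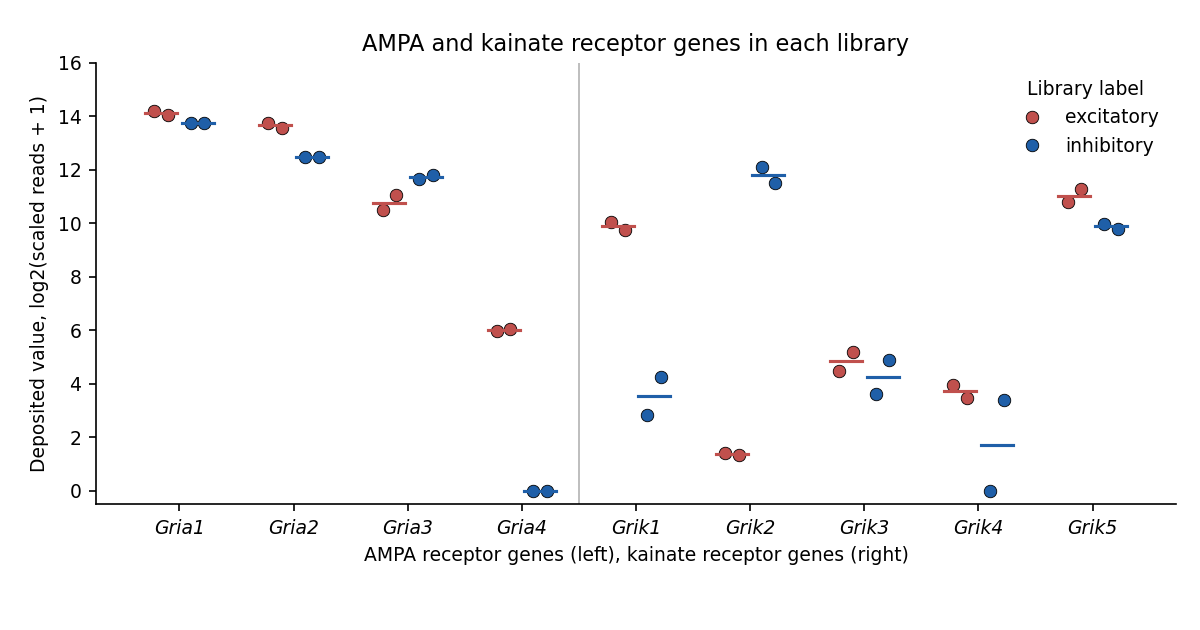
Deposited log2 value of each AMPA and kainate receptor gene in the 2 excitatory (red) and 2 inhibitory (blue) libraries. Points are libraries and bars the mean of a label. The added 1 in the axis label is not given in the sources used here. Gria1 and Gria2 lie above 12 in every library, while Grik1 and Grik2 are high under opposite labels.

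Gria1, which encodes the subunit most tied to activity-dependent insertion of AMPA receptors, had the highest value of the 9 genes in every library. It had 14.21 and 14.06 in the excitatory libraries, against 13.77 and 13.77 in the inhibitory ones. The labels did not overlap, and the gap was small. The difference was 0.36 (SE 0.10, limma adjusted p = 0.0265), a 1.29-fold one that was -0.18 after scaling (adjusted p = 0.165), so its direction depends on how the libraries were set against each other. It also did not pass without limma's mean-variance trend (adjusted p = 0.148), with the replicate number as a block (0.0518), when excitatory replicate 1 was left out (0.0674) or when either inhibitory library was (0.132 and 0.129), and adjusted p over all alternatives ran from 0.0233 to 0.175.

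Gria2, the gene of the subunit that limits calcium entry, was higher in the excitatory libraries. It had 13.75 and 13.58 there, against 12.49 and 12.47 in the inhibitory libraries. The excitatory libraries stood more than 1 log2 unit above the inhibitory ones, and libraries of a label lay within 0.2 of each other. The difference was 1.19 (SE 0.12, 2.28-fold, limma adjusted p = 0.000952), and 0.64 after scaling (1.56-fold, adjusted p = 0.00746).

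Gria3, on the X chromosome, moved the other way. It had 10.48 and 11.07 in the excitatory libraries, against 11.68 and 11.81 in the inhibitory ones. The labels did not overlap, and the excitatory libraries lay farther from each other than the inhibitory ones. The difference was -0.97 (SE 0.25, 1.96-fold, limma adjusted p = 0.0212) and -1.51 after scaling (2.85-fold, adjusted p = 0.00721). The call was lost when excitatory replicate 1 (adjusted p = 0.0659) or either inhibitory library (0.174 and 0.204) was left out, with adjusted p from 0.00721 to 0.204 over all alternatives.

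Gria4, which encodes a subunit with fast kinetics known in interneurons, was low under the excitatory label and listed at 0 under the other. It had 5.96 and 6.05 in the excitatory libraries, about 48 and 54 reads, and a value of 0 in each inhibitory library. The difference of 6.00 depends on where the value of 0 is set, and was 2.87 with 10 added to the linear values before the log. Gria4 passed the filter on low values through the excitatory libraries alone, so no support is taken from its test, and a listed 0 is not read as absence of the transcript. The summed level of GABAergic neuron markers, given above, overlapped between the labels.

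Of the kainate receptor genes, Grik1 and Grik2 showed the largest differences, in opposite directions. Grik1, the gene of GluK1, had 10.04 and 9.75 in the excitatory libraries, against 2.84 and 4.26 in the inhibitory ones. In reads this was about 810 and 698 in the excitatory libraries, against 9 and 21 in the inhibitory ones. The labels lay far apart, and the inhibitory libraries differed from each other by more than 1 log2 unit. The difference was 6.34 (SE 0.56, limma adjusted p = 0.000637), and 5.82 after scaling (adjusted p = 0.00101). With either excitatory library left out it did not pass (adjusted p = 0.0626 and 0.0598), in a range of 9.05e-05 to 0.0626 over the alternatives, while the difference stayed between 5.49 and 7.05.

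Grik2, the gene of GluK2, was the reverse. It had 1.40 and 1.32 in the excitatory libraries, about 2 reads in each, against 12.10 and 11.52 in the inhibitory libraries, about 6085 and 3353 reads. The gap between the labels was the widest of the 9 genes. The difference was -10.45 (SE 0.35, 95% interval -11.37 to -9.52, limma adjusted p = 9.49e-05). It was -10.88 after scaling, and -8.28 with 10 added to the linear values before the log. Among all genes above 0, Grik2 ranked 12060 and 12085 in the excitatory libraries, against 2013 and 2818 in the inhibitory ones. Background knowledge places GluK1 in interneurons and GluK2 in principal cells, and the labels carried these genes the other way round.

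Grik3, the gene of GluK3, was low everywhere. It had 4.46 and 5.20 in the excitatory libraries, against 3.61 and 4.89 in the inhibitory ones, about 16 to 33 reads in a library. The labels overlapped. The difference was 0.58 (SE 0.59, 95% interval -0.99 to 2.15, limma adjusted p = 0.419), an interval too wide at this depth to tell a rise from a fall, and it was -0.0595 without inhibitory replicate 1.

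The high-affinity subunits depend on GluK1 to GluK3 for a channel, and only one of their genes was well detected. Grik5, the gene of GluK5, had 10.79 and 11.27 in the excitatory libraries, against 9.99 and 9.79 in the inhibitory ones. The labels did not overlap. The difference was 1.14 (SE 0.25, 2.21-fold, limma adjusted p = 0.0119), and 0.60 after scaling, where it did not pass (1.52-fold, adjusted p = 0.111). The call was also lost when excitatory replicate 2 (adjusted p = 0.0727) or either inhibitory library (0.115 and 0.14) was left out, in a range of 0.0088 to 0.14. Grik4, the gene of GluK4, had 3.95 and 3.47 in the excitatory libraries, against 0 and 3.39 in the inhibitory ones, which is 12 and 9 against 0 and 11 estimated reads. One inhibitory library was at 0 and the other was next to the excitatory ones. The difference was 2.02 (SE 1.19, 95% interval -1.12 to 5.16, limma adjusted p = 0.188).

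**Figure D2:**
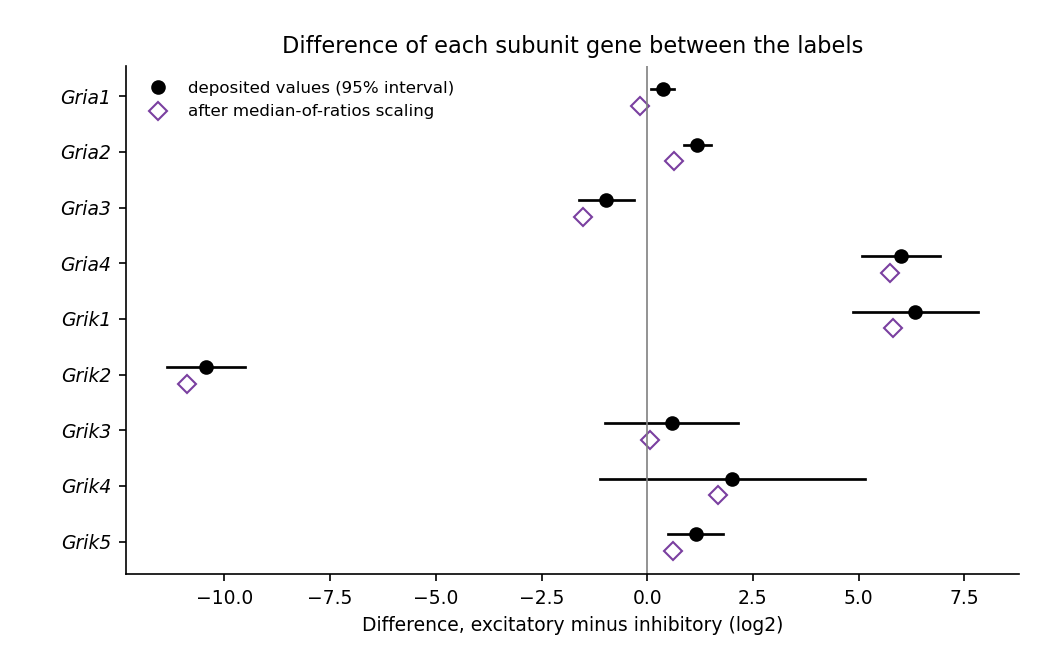
Difference of each gene, excitatory minus inhibitory (log2); circles are deposited values with limma's 95% interval and diamonds the difference after median-of-ratios scaling. Scaling moves Gria1 to the other side of 0 and leaves Grik1 and Grik2 at 5.82 and -10.88.

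Since the scaling between libraries bears on these differences, the subunits were also compared within each library. The order of the genes, their shares and their ratios within a library do not depend on that scaling. The levels themselves still carry it when labels are set against each other. Levels of different genes were set against each other per kilobase of exonic length (linear value divided by the union of annotated exons). By this level the order under both labels began with Gria1 and Gria2, at 2970 ± 221 and 837 ± 70.9 scaled reads per kilobase in the excitatory libraries, against 2310 ± 1.13 and 367 ± 2.34 in the inhibitory ones (SD, n = 2 each). In the excitatory libraries Grik5 came next (410 ± 97.4), and Gria3 (181 ± 51.2) and Grik1 (142 ± 20.1) changed places between the libraries. In the inhibitory libraries Gria3 (348 ± 22.5) followed Gria2, then Grik2 (276 ± 77.4) and Grik5 (183 ± 17.8). Gria3 lay just under Gria2 in inhibitory replicate 2 (364 and 365) and farther under it in inhibitory replicate 1 (332 and 369). By coding length these genes lay farther apart, as given below. The remaining genes were at or below 10.4 per kilobase under either label, with Gria4 highest among them in the excitatory libraries.

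Gria2 made up a larger part of the AMPA receptor transcripts in the excitatory libraries. Its share of the summed Gria level per kilobase was 21.3% and 20.5% there, against 12.3% and 12% in the inhibitory libraries. Gria3 took 3.48% and 5.67% in the excitatory libraries, against 11% and 12% in the inhibitory ones. Gria1 held the largest part in every library, 75.0% and 73.5% against 76.7% and 76%, and Gria4 0.232% and 0.27% against 0. The ratio of Gria2 to Gria1 per kilobase was -1.83 ± 0.015 (log2; SD, n = 2) in the excitatory libraries, against -2.65 ± 0.0099 in the inhibitory ones. The ratio of Gria3 to Gria2 was -2.23 ± 0.54 in the excitatory libraries, against -0.08 ± 0.10 in the inhibitory ones. Both gaps were larger than the spread within a label; an exact permutation test of 2 libraries against 2 cannot go below a two-sided p of 0.333. Shares depend on the length used. By coding length Gria2 held 40.9% and 39.5% in the excitatory libraries, against 25.4% and 24.9% in the inhibitory ones. Gria1 held 54.7% and 53.5% against 60.1% and 59.5% by that length, and Gria3 4.22% and 6.88% against 14.4% and 15.6%. The nearness of Gria3 to Gria2 in the inhibitory libraries thus depends on the use of exonic length.

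Among kainate receptor transcripts the labels had different main subunits. In the excitatory libraries Grik5 held 68.0% and 78.2% of the summed Grik level per kilobase and Grik1 31.1% and 20.8%, with Grik2 at 0.0246% and 0.0185%. In the inhibitory libraries Grik2 held 62.5% and 55.4% and Grik5 37.1% and 42.8%, with Grik1 at 0.173% and 0.677%. By exonic length Grik3 and Grik4 stayed below 1% in every library; by coding length Grik3 was at 1.12% in excitatory replicate 2. The summed level of GluK1 to GluK3 genes was 0.461 and 0.274 times that of GluK4 and GluK5 genes in the excitatory libraries, against 1.7 and 1.32 times in the inhibitory ones. By coding length, a setting chosen after seeing the data, these ratios were 0.622 and 0.372 in the excitatory libraries, against 4.68 and 3.6 in the inhibitory ones. The summed Gria level was 8.31 and 6.26 times the summed Grik level in the excitatory libraries, against 5.69 and 7.6 times in the inhibitory ones, ranges that overlap. They did not overlap by coding length (12.9 and 10.1 against 4.35 and 6.17) or without division by length (12 and 9.31 against 4.24 and 6), so whether the labels differ in this ratio depends on the length used. As a part of the linear total of a library, without division by length, Gria genes made up 426 and 406 ppm in the excitatory libraries, against 429 and 427 ppm in the inhibitory ones. The Grik genes made up 35.5 and 43.6 ppm in the excitatory libraries, against 101 and 71.2 ppm in the inhibitory ones.

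**Figure D3:**
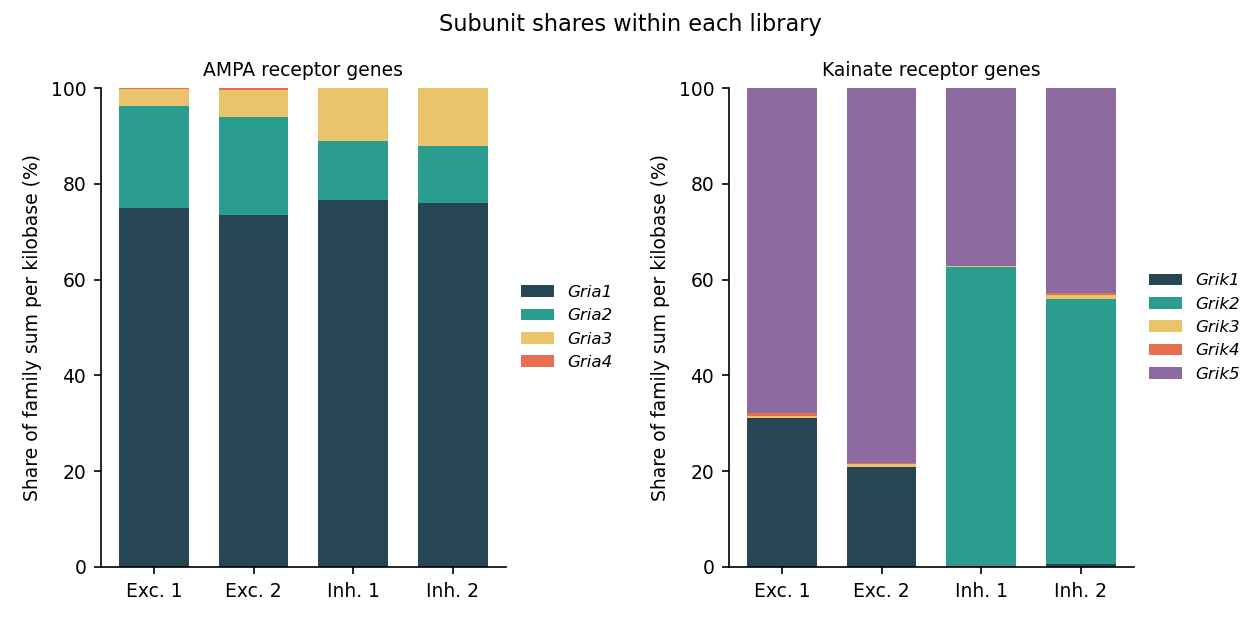
Share of each subunit gene in the summed level per kilobase of its family, in percent, for AMPA (left) and kainate (right) receptor genes in each of the 4 libraries. Gria2 takes 21.3% and 20.5% under the excitatory label and 12.3% and 12% under the inhibitory one, and the kainate bars exchange Grik1 for Grik2.

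Proteins that assemble with these receptors set their gating and their place at the synapse, and 24 genes of such auxiliary subunits and partners were examined. Of these, 15 could be tested: 9 passed with the excitatory libraries higher, 2 passed with the inhibitory ones higher and 4 missed the threshold, counts near the shares over all genes tested (45% and 26.8%, or 71.8% together). The median difference of the 15 was 0.59, near the 0.52 of all genes, and after scaling the counts were 6 and 3 with a median of 0.05. Of the cornichon genes, whose proteins slow the closing of AMPA receptors, Cnih3 had 13.18 and 13.25 in the excitatory libraries, against 4.81 and 5.16 in the inhibitory ones (difference 8.23, SE 0.24, limma adjusted p = 9.49e-05). The libraries of each label lay within 0.4 of each other. Its relative Cnih2 was high under both labels, 16.72 and 16.74 against 16.20 and 16.11, and its difference of 0.58 was 0.03 after scaling (adjusted p = 0.741; 0.000609 to 0.741 over the alternatives).

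The genes of TARPs, which anchor AMPA receptors to the postsynaptic scaffold, were thinly detected. Cacng2, the gene of stargazin, had 8.87 and 9.31 in the excitatory libraries, against 5.20 and 5.71 in the inhibitory ones (3.64, SE 0.35, limma adjusted p = 0.000842). Cacng5, Cacng7 and Cacng8 were listed at 0 in all 4 libraries, and Cacng3 and Cacng4 did not pass. Slc32a1, which defines the inhibitory label, was at 0 in these tables too, so absence of a transcript is not read from a value of 0.

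Genes of the Shisa family, other AMPA receptor partners, were split. Shisa6 had 10.05 and 10.04 in the excitatory libraries, against 2.84 and 3.26 in the inhibitory ones (6.99, SE 0.32, limma adjusted p = 0.000116). Shisa7 went the other way with 5.54 and 5.11 against 8.19 and 8.55 (-3.04, SE 0.34, adjusted p = 0.00132). Prrt1, the gene of another membrane protein of AMPA receptor complexes, had 7.33 and 7.24 against 3.69 and 4.39 (3.24, SE 0.39, adjusted p = 0.0017), which ended when either excitatory library was left out (0.061 and 0.0595; 0.000576 to 0.061 over the alternatives). Among genes of secreted partners, Olfm1 was high under both labels, 17.57 and 17.51 against 16.97 and 16.94, and its difference of 0.59 was 0.05 after scaling (adjusted p = 0.487; 0.00027 to 0.487 over the alternatives). Olfm3 had 10.88 and 11.18 in the excitatory libraries, against 0 and 2.38 in the inhibitory ones, a call that ended when either excitatory library was left out (limma adjusted p = 0.0643 and 0.0665; 2.79e-05 to 0.0665 over the alternatives). Porcn, whose protein retains AMPA receptors in the endoplasmic reticulum, was higher in the inhibitory libraries (-1.17, SE 0.27, adjusted p = 0.0154), a call lost without any 1 library (0.0749 to 0.197).

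The auxiliary subunits of kainate receptors are Neto1 and Neto2. Neto2 had 11.13 and 10.79 in the excitatory libraries, against 4.88 and 6.52 in the inhibitory ones. The excitatory libraries stood over 4 log2 units above the inhibitory ones. The difference was 5.26 (SE 0.60, limma adjusted p = 0.00145), and it did not pass with either excitatory library left out (0.0924 and 0.0848; 0.000162 to 0.0924 over the alternatives). Neto1 had 6.18 and 6.74 against 5.20 and 5.09, a difference of 1.32 (SE 0.36, adjusted p = 0.0266) that was 0.78 after scaling and did not pass there (0.129). Neto1 also did not pass with the replicate number as a block (adjusted p = 0.0502) or when excitatory replicate 2 or either inhibitory library was left out (0.068 to 0.146).

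**Figure D4:**
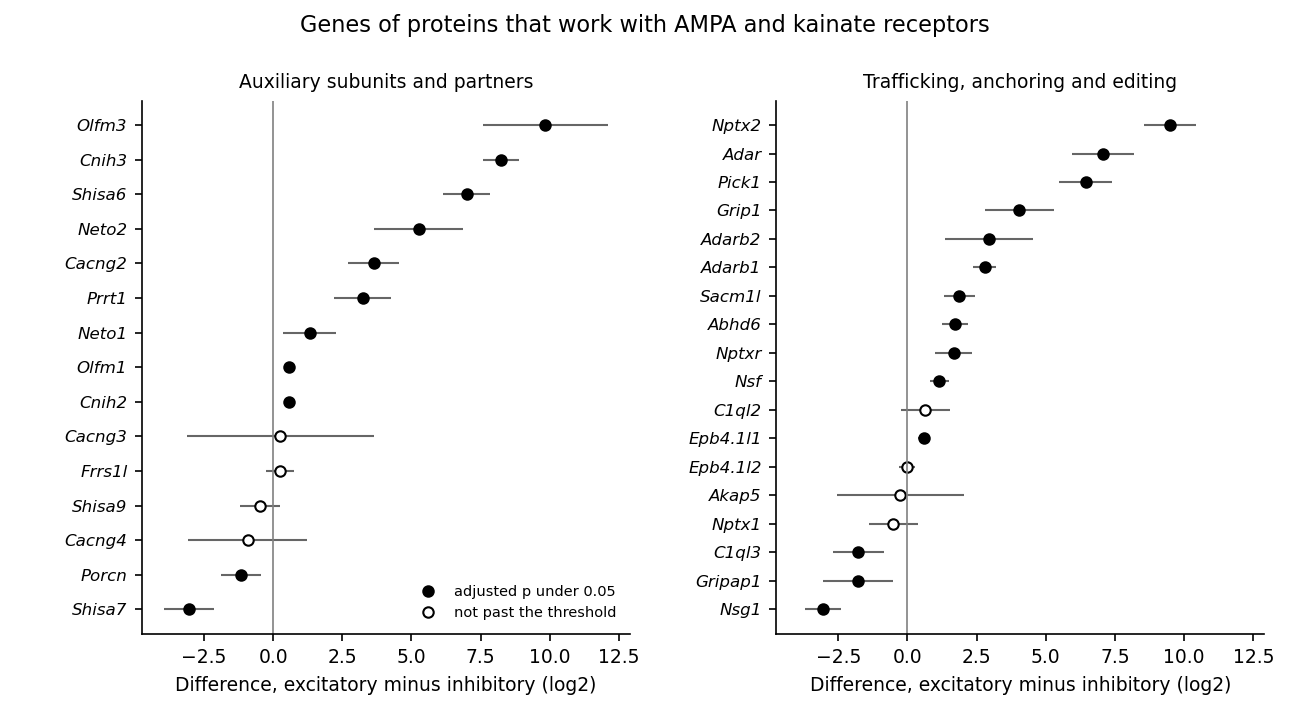
Difference, excitatory minus inhibitory (log2), with limma's 95% interval for the tested genes of auxiliary subunits and partners (left, 15 genes) and of trafficking, anchoring and editing proteins (right, 18 genes); filled points passed an adjusted p of 0.05. Most filled points lie to the right of 0, where the median of all genes also lies (0.52).

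Proteins that carry, anchor or edit the receptors were covered by 20 genes, of which 18 could be tested. Of the 18, 11 passed with the excitatory and 3 with the inhibitory libraries higher, beside 45% and 26.8% of all genes tested (71.8% together), with a median difference of 1.41, against 0.52 over all genes; after scaling the counts were 10 and 4 and the median 0.87. Adarb1, the gene of ADAR2 that edits the Q/R site of Gria2, had 13.95 and 13.64 in the excitatory libraries, against 11.05 and 10.96 in the inhibitory ones (2.79, SE 0.16, 6.90-fold, limma adjusted p = 0.000189). After scaling its fold was 4.74 (adjusted p = 0.000401). Adar, the gene of the related ADAR1, had 9.59 and 9.61 against 2.09 and 2.97 (7.07, SE 0.42, adjusted p = 0.000206). Adarb2, the gene of a relative with no known editing activity, had 10.52 and 8.88 against 6.59 and 6.88 (2.96, SE 0.60, adjusted p = 0.00984), a call that ended when either inhibitory library was left out (0.178 and 0.156; 0.00218 to 0.178 over the alternatives). Adarb1, Adar and Adarb2 all had the higher values under the excitatory label, where 45% of all genes tested also passed as higher. Editing itself was not measured, and a link to the share of Gria2 was not tested.

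PICK1 and GRIP1 bind the tail of GluA2 and hold receptors inside the cell or at the synapse. Pick1 had 6.58 and 6.30 in the excitatory libraries, against a listed 0 in each inhibitory one. Grip1 had 11.10 and 10.12 in the excitatory libraries, against 6.94 and 6.20 in the inhibitory ones, a call that ended when excitatory replicate 1 (limma adjusted p = 0.0592) or either inhibitory library (0.057 and 0.0693) was left out, over a range of 7.42e-05 to 0.0693. Nsf, the gene of an ATPase that binds GluA2, was 2.23-fold higher under the excitatory label (1.16, SE 0.13, adjusted p = 0.00126), and 1.53-fold after scaling. Abhd6 and Sacm1l, whose proteins bind AMPA receptors on their way to the surface, were higher under the same label, by 1.73 (SE 0.18, adjusted p = 0.00105) and 1.87 (SE 0.21, adjusted p = 0.00143). The call of Sacm1l ended when either inhibitory library was left out (0.0568 and 0.0574; 0.0006 to 0.0574 over the alternatives). Epb4.1l1, the gene of a cytoskeletal anchor of GluA1, differed by 0.59 and by 0.04 after scaling (adjusted p = 0.749). Gripap1, the gene of a GRIP1 partner, was higher under the inhibitory label (-1.79, SE 0.48, adjusted p = 0.0235), which did not hold with any 1 library left out (0.0666 to 0.215).

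Of the pentraxins, secreted or membrane proteins that gather AMPA receptors at synapses, Nptx2 had 9.29 and 9.67 in the excitatory libraries, against a listed 0 in each inhibitory one. Nptx1 had 9.17 and 9.998 against 9.997 and 10.19, values that overlap. Nptxr, the pentraxin receptor gene, had 10.02 and 9.91 against 8.09 and 8.51 (1.67, SE 0.26, limma adjusted p = 0.00385), which ended when either excitatory library was left out (0.0792 and 0.0727; 0.00251 to 0.0792 over the alternatives). Nsg1, whose protein sorts AMPA receptors in endosomes, was higher in the inhibitory libraries, with 7.91 and 8.26 against 11.28 and 10.998 (-3.06, SE 0.25, limma adjusted p = 0.000489). C1ql3, of a family of secreted synaptic organizers, was also higher there (-1.78, SE 0.35, adjusted p = 0.00872), which ended when either excitatory library (0.112 and 0.0994) or inhibitory replicate 2 (0.0598) was left out, over a range of 0.00388 to 0.112.

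The nearest relatives of these genes, the NMDA and delta receptor genes, were measured in the same fit. Of 8 tested, 6 passed with the excitatory and 1 with the inhibitory libraries higher, beside 45% and 26.8% of all genes tested, with a median difference of 2.71, beside 5 and 2 of the 9 AMPA and kainate receptor genes with a median of 1.14. Whether the families differ was not tested. Grin1, the gene of the obligatory NMDA receptor subunit, had 11.05 and 10.81 in the excitatory libraries, against 6.20 and 7.32 in the inhibitory ones, which ended when either excitatory library was left out (limma adjusted p = 0.078 and 0.0726; 0.000165 to 0.078 over the alternatives). Grin2d had 8.66 and 7.49 in the excitatory libraries, against a listed 0 in each inhibitory one. Grin3a was the exception among them, with 4.70 and 5.21 against 11.13 and 11.30 (-6.26, SE 0.30, adjusted p = 0.000128).

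Over the 4 values, the genes nearest to Grik2 among the genes tested were Hps3, Dock8 and Htra2, at Euclidean distances of 1.02, 1.23 and 1.24 log2 units. Those nearest to Grik1 were Smpdl3b, Atp13a1 and Fam124a, at 0.53 to 0.56. Those nearest to Gria1 were Lxn, Atp6v1g2 and Snx3, at 0.05 to 0.13. With 4 libraries in 2 groups such nearness describes levels only.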

How the data were processed

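RNA-seq libraries were made from picked cells with the SMART-seq v4 and Nextera XT kits, per the labels' protocols. The authors deposited 1 log2 value per gene and library. The submitters' processing notes name TopHat, edgeR and build mm10, without versions or roles; how reads were counted and scaled is not given in the sources used here. From the values, the base of the logarithm was settled: once values were raised back from log2 and 1 was taken off, the lowest ones form evenly spaced bands (0.72 to 1.29 apart). Reads were estimated from this spacing, taking the lowest band as 1 read, so no counting interval was computed. A line fitted to the 8 lowest bands missed the origin, by -0.968 and -0.969 in the excitatory libraries and -0.329 and -0.149 in the inhibitory ones. With 1 added before the log and a lowest band of 1 read, it would pass through the origin. The lowest inhibitory band may thus hold more than 1 read. Read estimates there may be slightly low, and a value at the floor may hide a read. Mbp had 21.331 in every library.

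Since the tables hold log2 values, limma 3.58.1 in R 4.3.3 was fitted, with its mean-variance trend, to the 13619 genes that reached 1 in 2 or more libraries, adjusted by Benjamini-Hochberg over all of them with a threshold of 0.05. The script was tested on simulated data. Coordinates, exons and transcripts came from GENCODE M21 on mm10. Exons of other annotated genes covered at most 0.99% of the exonic length of a subunit gene. Epb41l1 and Epb41l2 were matched by their older symbols. Alternatives were 2 other scalings, 2 filters, 10 added before the log, no trend, a replicate block and leaving out each library. All subunit genes, passing or zero-listed partners and nearest genes by distance were eligible to be named. Picked with their values in view were the precursor markers, Cldn5, Tek, Cacng3, Cacng4, Nptx1 and the genes at 0 in all libraries. The members and lists were chosen with earlier results of these data known.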

Additional observations from a re-analysis of the deposited data

How the results depend on the processing

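Of the receptor genes, 7 passed limma's test in the deposited values, 5 after median-of-ratios or upper-quartile scaling, 6 with the replicate block and 4 to 5 without any 1 library (4 without excitatory replicate 1 or inhibitory replicate 1). Gria1 turned to -0.18 and -0.16 after median-of-ratios and upper-quartile scaling, and Grik3, at 0.58 with all libraries, lay between -0.0595 and 1.23 without any 1 library, the lowest without inhibitory replicate 1. Grik4 passed only without inhibitory replicate 2 (3.71, limma adjusted p = 0.0313). Without any 1 library 6103 to 6551 of all genes passed, against 9777 with all, 6 to 9 of the auxiliary genes against 11, 8 to 10 of the trafficking genes against 14 and 4 to 6 of the NMDA and delta receptor genes against 7. With fewer libraries the fit has 1 residual degree of freedom, and the lone library of a label is assumed to vary like the other label. The replicate numbers of the labels did not pair the libraries (correlation of deviations -0.00193 across genes), and with the replicate block 9782 of all genes passed; among receptor genes it ended the call of Gria1. Differences in share, excitatory minus inhibitory, moved with the length used. Without division by length they were -5.69, 14.9, -9.37 and 0.193 percentage points for Gria1 to Gria4, against -2.06, 8.75, -6.94 and 0.251 per exonic length, and -78.3 for Grik2 and 46.8 for Grik5, against -58.9 and 33.2. By coding length they were -5.74, 15.0, -9.49 and 0.192 points for Gria1 to Gria4, and -79.5, 0.472 and 47.3 for Grik2, Grik3 and Grik5. The direction of every share difference was the same under these length settings and when 1 was not subtracted, a setting chosen after seeing the data. Values of Grik3 and Grik4 rest on at most 33 estimated reads in a library.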
